A study of Mus musculus with 12 samples.

Results

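The genes described here are 33 genes that B cells and lymphoid follicles are known for, counted in sequenced ileum RNA from 12 C57BL/6J mice. They were chosen by name, as the rows of the count table whose Ensembl identifier carries 1 of 33 listed symbols, and all 33 were found among the 54838 genes of the table. Mice drank normal water or water with 25 mM ZnSO4 for 7 days, were then injected with 200 µg dexamethasone (Dex, a synthetic glucocorticoid that acts through the glucocorticoid receptor) in PBS or with PBS alone, and were sampled 2 h after the injection. The 4 groups water + PBS, water + Dex, ZnSO4 + PBS and ZnSO4 + Dex held 3 mice each, and every library came from 1 mouse of this strain. The labels give no age, no sex and no batch, and do not say where along the ileum a piece was taken or whether Peyer's patches were left in it. The study set out to learn how zinc protects mice against lethal inflammation induced by the cytokine TNF. These libraries served to ask whether zinc changes transcription driven by the glucocorticoid receptor in the ileum. For these 33 genes the question here was how they moved together between mice of the same group, and what was left of a difference between groups once that was taken into account.

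B cells are made in the bone marrow and settle in follicles of lymphoid tissue, of which the ileum holds Peyer's patches and smaller isolated follicles. Stromal cells and B cells keep a follicle together through a loop in which lymphotoxin on lymphocytes induces the chemokine Cxcl13 in stroma, and Cxcl13 draws in more cells that carry its receptor Cxcr5. Follicles in the gut are covered by an epithelium with M cells, which pass antigen from the lumen to the lymphocytes underneath, and in active follicles B cells enter germinal centres where their antibody genes are mutated and selected.

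By role the list held 8 genes of the B cell receptor and its co-receptors (Cd79a, Cd79b, Cr2, Cd22, Cd72, Siglecg, Ms4a1 and Cd37), 4 signalling proteins (Blk, Blnk, Bank1 and Ralgps2) and 5 transcription factors (Pax5, Ebf1, Spib, Pou2af1 and Bcl11a). A further 4 were Fc receptors and their relatives (Fcer2a, Fcmr, Fcrla and Fcrl1) and 4 were receptors of survival, innate signals or activation together with a chaperone of the early receptor (Tnfrsf13c, Cd180, Cd83 and Vpreb3). The remaining genes were 5 chemokine receptors and organisers of follicles (Cxcr5, Cxcl13, Ccr6, Madcam1 and Ltb), 2 genes of germinal centre B cells (S1pr2 and Rgs13) and 1 gene of M cells (Gp2). The genes lay on 14 chromosomes, with 6 of them on chromosome 7, and the closest pair, Spib and Cd37, was separated by 701561 bases. No exon of a member shared bases with another gene on the same strand. Of the exonic bases of Cd72, 41.58% overlapped Tesk1 on the opposite strand, and since the strand setting of the counting is not given in the sources used here, reads of the pair may have been mixed.

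Promoter windows were at hand for 28 of the 33 members, and 4 of them are printed because each holds 1 of the short letter motifs that were searched for, those of factors known from B cells and of NF-kappa B. Each sequence is the 250 bases before the RefSeq start in GRCm38.p6, written 5′ to 3′ on the strand of the gene, with the matched letters in capitals. Vpreb3, on the plus strand at chr10:75948050-75948299, holds the octamer ATGCAAAT on its other strand, the letters that Pou2f factors bind with Pou2af1. Spib, on the minus strand at chr7:44532072-44532321, holds the Ebf1 core CCCNNGGG in 2 overlapping positions. Fcrl1, on the plus strand at chr3:87376137-87376386, holds the ETS letters GAGGAAGT, known for Spib and Spi1, on its other strand. Ltb, on the plus strand at chr17:35194257-35194506, holds the kappa B letters GGANTTTCC on its other strand.
Vpreb3: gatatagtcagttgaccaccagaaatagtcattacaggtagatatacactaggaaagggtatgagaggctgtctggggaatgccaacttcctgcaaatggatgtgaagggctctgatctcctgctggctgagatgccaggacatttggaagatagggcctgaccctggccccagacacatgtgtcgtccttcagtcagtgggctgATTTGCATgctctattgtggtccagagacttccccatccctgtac
Spib: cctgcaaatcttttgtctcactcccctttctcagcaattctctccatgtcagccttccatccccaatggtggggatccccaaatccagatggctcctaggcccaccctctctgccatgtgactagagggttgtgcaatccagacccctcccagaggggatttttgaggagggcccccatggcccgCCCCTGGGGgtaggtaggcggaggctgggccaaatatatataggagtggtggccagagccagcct
Fcrl1: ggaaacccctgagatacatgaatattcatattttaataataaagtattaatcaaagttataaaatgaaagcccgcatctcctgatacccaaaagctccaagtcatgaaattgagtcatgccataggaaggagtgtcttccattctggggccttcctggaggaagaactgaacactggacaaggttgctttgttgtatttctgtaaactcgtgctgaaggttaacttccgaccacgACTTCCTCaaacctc
Ltb: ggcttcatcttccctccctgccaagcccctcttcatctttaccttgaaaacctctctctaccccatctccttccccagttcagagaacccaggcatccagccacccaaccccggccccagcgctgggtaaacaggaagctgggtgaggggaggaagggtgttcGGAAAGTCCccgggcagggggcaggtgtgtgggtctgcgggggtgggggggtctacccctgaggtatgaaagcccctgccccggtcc

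Searched on both strands, the octamer was in the windows of 3 of the 28 members (Blnk, Vpreb3 and Ccr6), against 1.81% of the 27025 genes with a window. The Ebf1 core was in those of 4 members (Cd22, Spib, Bank1 and Madcam1), against 13.4% of all genes, and the ETS letters in those of 3 (Cd72, Cd37 and Fcrl1), against 2.79%. The kappa B letters were in those of 4 members (Ebf1, Madcam1, Rgs13 and Ltb), against 1.25% of all genes. In Madcam1 the kappa B match overlapped the match to the Ebf1 core. These are matches of letters only.

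Total counts lay between 10760132 and 11827487 per library, with a median of 11388606, and the 33 members together took between 0.0184% and 0.167% of them. The treatments could be read from genes outside the list. Fkbp5, a classical glucocorticoid target, lay between 949.95 and 1222 normalised counts in the 6 PBS mice and between 10263 and 12396 in the 6 Dex mice. Mt1, the zinc-binding metallothionein, lay between 490.3 and 1376 in the 6 mice on water and between 11971 and 27940.0 in the 6 mice on ZnSO4. Here and below a normalised count is a count divided by the effective library size and multiplied by the mean effective library size, 11377723.

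Within every group the members differed widely between mice, and they did so together. Ms4a1 (CD20, a surface protein of mature B cells; ENSMUSG00000024673, chr19:11249675-11266241 in mm10) had 25.3, 1407 and 391 normalised counts in water + PBS replicates 1, 2 and 3. It had 378, 41.0 and 6.48 in water + Dex, 205, 1077 and 11.1 in ZnSO4 + PBS and 10.4, 11.5 and 116 in ZnSO4 + Dex. Thus 1 mouse stood high in each group, and all 4 groups overlapped. The highest library, water + PBS replicate 2, held 217 times the normalised count of the lowest, water + Dex replicate 3, where 6 reads were counted.

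**Figure D1:**
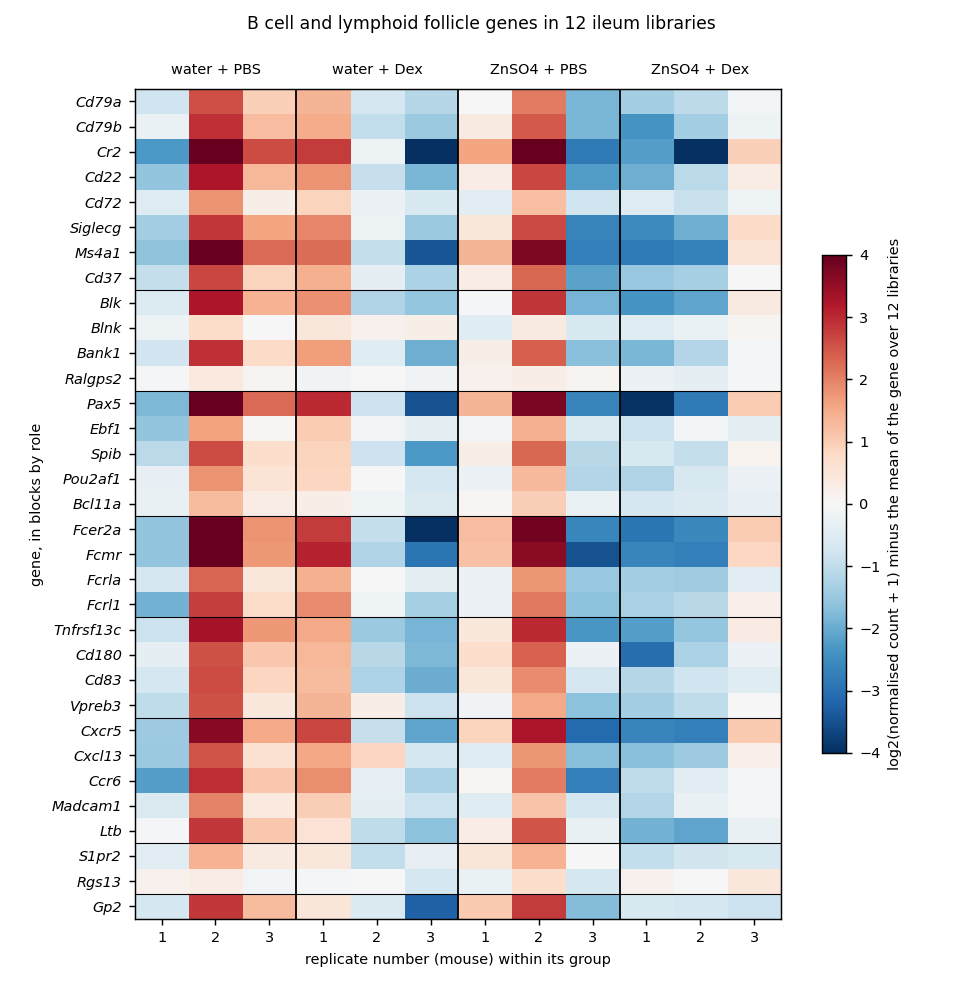
Heat map of the 33 genes (rows, in blocks by role) in the 12 libraries (columns, replicates 1 to 3 of each group). Colour is log2(normalised count + 1) minus the mean of the gene over the 12 libraries, cut at -4 and 4; the columns of water + PBS replicate 2 and ZnSO4 + PBS replicate 2 are red in nearly every row, while Ralgps2, Blnk and Rgs13 stay pale.

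The same mouse led its group for nearly all members. Water + PBS replicate 2 was the highest of its group for 33 of 33 members, and ZnSO4 + PBS replicate 2 for 33 of 33. Over all 15938 genes tested these libraries were the highest of their group for 35.6% and 32.5% of genes. Water + Dex replicate 1 was the highest for 31 of 33 members, against 31.6% of all genes, and ZnSO4 + Dex replicate 3 for 31 of 33, against 33.4%. At the other end, water + PBS replicate 1 was the lowest of its group for 32 members, water + Dex replicate 3 for 30 and ZnSO4 + PBS replicate 3 for 33, against 34.8%, 30.6% and 32.4% of all genes. In ZnSO4 + Dex the lowest place was divided, with replicate 1 lowest for 23 members (30.995% of all genes) and replicate 2 for 9 (35.6%). The summed counts of the members ran from 2055 in ZnSO4 + Dex replicate 1 to 18653 in water + PBS replicate 2, and the next highest library, ZnSO4 + PBS replicate 2, had 15178. The remaining 9 libraries held between 2284 and 7518 reads of the members.

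The size of this spread was measured as the SD of log2 CPM (counts scaled to the effective library size, with a prior count of 2) within groups. Its median over the 33 members was 1.51, with a range from 0.154 for Ralgps2 to 3.12 for Cr2, while the median over all genes tested was 0.190. A spread of over 0.8 was found for 28 members, and for 3.42% of all genes. Across the 12 libraries the log2 CPM of the other 32 members correlated with that of Ms4a1 at a median Pearson r of 0.931 (0.556 to 0.994) and a median Spearman rho of 0.916 (0.434 to 0.993). With a permutation test of 100000 resamples and Benjamini-Hochberg adjustment over 15937 genes, 29 of the 32 members had an adjusted p under 0.05 for r and 25 for rho, against 2.43% of all genes for r and 160 of the 15937 genes for rho. The exceptions for r were Blnk (r = 0.634, rho = 0.545), Ralgps2 (r = 0.720, rho = 0.699) and Rgs13 (r = 0.556, rho = 0.434). Their unadjusted permutation p of r was 0.0304, 0.00869 and 0.0611, and their adjusted p was 0.282, 0.163 and 0.361. Fcer2a had the highest r, 0.994, with a permutation p of 1e-05, the smallest that these resamples can give, and an adjusted p of 0.0029.

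The relation was also there within groups and without the 2 highest libraries. Taken as deviations from the group means, the median r with Ms4a1 was 0.954. Without water + PBS replicate 2 and ZnSO4 + PBS replicate 2, the 2 libraries farthest from the median of Ms4a1, it was 0.885, and the r of Blnk, Ralgps2 and Rgs13 fell to 0.380, 0.478 and 0.305. In bulk RNA, fewer cells of a type and less RNA per cell cannot be told apart, so these values do not say whether a library with little Ms4a1 held fewer B cells.

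Genes of the receptor and its co-receptors had a median spread of 1.82. Cr2, the complement receptor of mature B cells and follicular dendritic cells, was at 5.84, 742 and 204 normalised counts in water + PBS, 231, 28.1 and 1.08 in water + Dex, 98.1, 596 and 3.70 in ZnSO4 + PBS and 6.22, 0 and 63.0 in ZnSO4 + Dex. The library at 0 had no read of Cr2, and a count of 0 allows up to 3 reads. Cd79a, a signalling chain of the B cell receptor, kept a higher floor, with 113, 1165 and 381 in water + PBS, 499, 119.9 and 88.6 in water + Dex, 197, 827 and 53.7 in ZnSO4 + PBS and 75.7, 93.2 and 182 in ZnSO4 + Dex. Its lowest library held 4.61% of the highest, against 0.461% for Ms4a1 and 15.2% for Cd72, a coreceptor that dampens receptor signals.

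Among transcription factors, Pax5, which sets B cell identity, was nearly absent from the low libraries. It had 12.6, 837 and 229 normalised counts in water + PBS, 380.2, 25.9 and 3.24 in water + Dex, 123, 655 and 6.48 in ZnSO4 + PBS and 2.07, 5.76 and 96.1 in ZnSO4 + Dex. Spib, an ETS factor that acts in B cells and is also needed for M cells, was at 72.0, 946 and 247 in water + PBS, 285, 86.4 and 30.3 in water + Dex, 179, 759 and 70.4 in ZnSO4 + PBS and 97.5, 78.8 and 169.8 in ZnSO4 + Dex. Both put the same mouse first in each group, yet 3.20% of the highest level of Spib was left in its lowest library, while the lowest library of Pax5 held 2 reads. Pou2af1, a coactivator of octamer-bound factors that plasma cells also use, kept 12.6%, Ebf1, an early B lineage factor, 10.4% and Bcl11a, a zinc-finger factor of lymphoid progenitors, 25.9%.

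Among Fc receptors, Fcer2a (CD23, the low-affinity IgE receptor) had 6.81, 492 and 79.8 normalised counts in water + PBS, 161, 10.7999 and 0 in water + Dex, 53.7, 332 and 2.78 in ZnSO4 + PBS and 2.07, 2.88 and 45.9 in ZnSO4 + Dex. The library at 0 again leaves room for up to 3 reads, and the groups overlapped. Of the receptors of survival and activation, Tnfrsf13c, the receptor of the survival factor BAFF, had 22.4, 426 and 139 in water + PBS, 119, 14.04 and 10.81 in water + Dex, 55.6, 335 and 7.41 in ZnSO4 + PBS and 8.29, 13.5 and 52.3 in ZnSO4 + Dex. Cd83, which stabilises MHC class II on activated B cells and dendritic cells, had 81.7, 824 and 243 in water + PBS, 323, 56.2 and 33.5 in water + Dex, 184, 499.7 and 83.4 in ZnSO4 + PBS and 60.1, 77.8 and 95.05 in ZnSO4 + Dex. Both followed the order of Ms4a1 at the top of each group, and Cd83 kept 4.07% of its highest level against 1.74% for Tnfrsf13c. Fcrla, a cytoplasmic relative of the Fc receptors, kept 6.68% and Fcrl1, a surface relative, 3.59%.

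Cxcr5, which brings B cells to the follicle, was at 10.7, 401.3 and 91.2 normalised counts in water + PBS, 206, 16.2 and 6.48 in water + Dex, 59.4, 301 and 2.78 in ZnSO4 + PBS and 4.15, 3.84 and 65.1 in ZnSO4 + Dex. Its within-group r with Ms4a1 was 0.9899. Of the follicle organisers, Cxcl13, the ligand of Cxcr5, had 58.4, 963 and 255 normalised counts in water + PBS and 489, 305 and 103 in water + Dex. It had 117, 564 and 50.02 in ZnSO4 + PBS and 51.8, 59.6 and 193 in ZnSO4 + Dex, so that the 4 groups overlapped here too. Madcam1, the vessel adhesion molecule that lets gut-homing lymphocytes in, was at 38.9, 238 and 77.9 in water + PBS, 117, 46.4 and 32.4 in water + Dex, 42.4, 131 and 36.1 in ZnSO4 + PBS and 25.9, 48.0 and 56.6 in ZnSO4 + Dex. Cxcl13 and Madcam1 are made mainly by stroma and vessels rather than by B cells, and their within-group r with Ms4a1 was 0.953 and 0.888. Gp2, a receptor on M cells, was a low gene with 4.86, 67.2 and 21.9 in water + PBS, 12.3, 5.40 and 0 in water + Dex, 18.9, 65.0 and 1.85 in ZnSO4 + PBS and 5.18, 4.80 and 4.27 in ZnSO4 + Dex. Its 2 highest values were those of the 2 mice highest in Ms4a1, and the within-group r was 0.914.

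**Figure D2:**
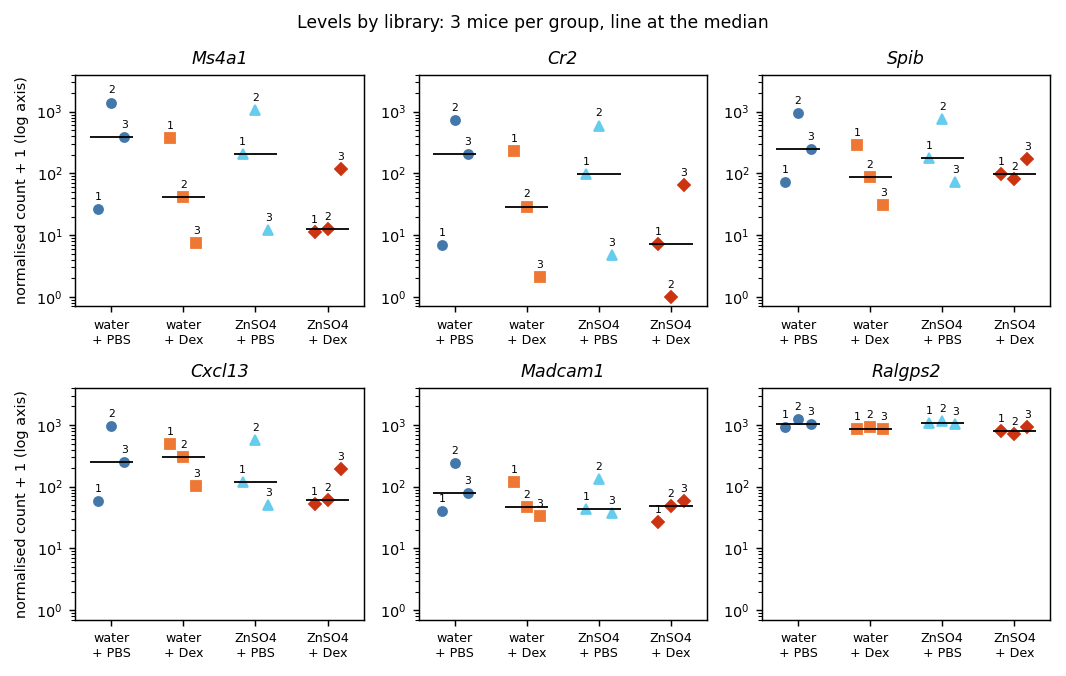
Normalised count + 1 (log axis) of 6 members in the 3 mice of each group; numbers are replicate numbers and the line is the median of the group. Replicate 2 of both PBS groups is highest in all 6 panels, and Ralgps2 lies between 722 and 1257 while Ms4a1 spans 6.48 to 1407.

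Some members did not behave as the label of the list says. Ralgps2, a guanine nucleotide exchange factor for Ral that B cells share with other cells (ENSMUSG00000026594, chr1:156804166-156939626), was among the most read members and the steadiest. It had 916, 1257 and 1039.5 normalised counts in water + PBS, 859.6, 935 and 866 in water + Dex, 1077, 1142 and 1036 in ZnSO4 + PBS and 803, 722 and 927 in ZnSO4 + Dex. Rgs13, a regulator of G protein signalling known from germinal centre B cells and also from intestinal tuft cells (ENSMUSG00000051079, chr1:144138654-144177372), was at 116, 128 and 96.9 in water + PBS, 100.3, 105 and 63.8 in water + Dex, 85.8, 168 and 63.9 in ZnSO4 + PBS and 118, 103 and 143 in ZnSO4 + Dex. Blnk, the adaptor downstream of the B cell receptor, ranged from 257 to 654. The lowest libraries of Ralgps2, Blnk and Rgs13 still held 57.5%, 39.4% and 37.9% of the highest, against a median of 3.23% over all members. Per kilobase of exon, in the library with the most reads of the members, Cxcl13 was the highest member with 73.6 CPM per kilobase, followed by Cd79a with 70.3 and Cd79b with 65.9, and S1pr2 the lowest with 1.76. In the library with the fewest, Rgs13, Pou2af1 and Ralgps2 came first with 6.28, 5.90 and 5.84 CPM per kilobase, and Cd79a had 4.57.

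To put the spread on a scale that the members did not set, a B cell reference level was taken from 3 genes outside the list. They included Ighd, the constant region of IgD of naive B cells, and H2-Ob, a modulator of antigen loading in B cells, and the level was the mean of the log2 CPM of the 3 genes. It was 1.26, 6.52 and 4.47 in water + PBS, 5.44, 1.74 and 0.27 in water + Dex, 3.69, 6.14 and 0.18 in ZnSO4 + PBS and 0.14, 1.03 and 3.496 in ZnSO4 + Dex. The same libraries as for the members were high and low. The mean was 3.71 ± 2.56 (SD, n = 6) in PBS mice and 2.02 ± 2.08 in Dex mice, a difference of 1.69 with an exact two-sided permutation p of 0.219 over 924 arrangements. Between mice on water and on ZnSO4 the means were 3.28 ± 2.53 and 2.45 ± 2.40, a difference of 0.84 with an exact permutation p of 0.545.

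With the reference level as a term beside the 4 groups, the slope of a gene is its log2 change for each log2 unit of the reference within groups, where 1 means a change in the same proportion. The slope was positive in 33 of 33 members and was called (edgeR's quasi-likelihood test, adjusted p under 0.05) in 31 of them, all positive. Over all genes 2.65% were called, 2.54% with a positive slope. The slopes of the members lay between 0.04 and 1.19 with a median of 0.58, and the median over all genes was -0.002. The 2 members without a call were Ralgps2, with a slope of 0.04 ± 0.02 (SE, adjusted p = 0.366), and Rgs13, with 0.12 ± 0.04 (adjusted p = 0.195).

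By role, slopes above 1 were found for 6 surface proteins and factors of mature B cells, namely Fcer2a (1.19 ± 0.05), Fcmr (the IgM receptor; 1.16 ± 0.04), Pax5 (1.16 ± 0.05), Cr2 (1.15 ± 0.09), Ms4a1 (1.06 ± 0.04) and Cxcr5 (1.04 ± 0.04). The median slope was 0.93 for the 4 Fc receptors and relatives, 0.73 for the 8 receptor and co-receptor genes and 0.36 for the 5 transcription factors. Follicle organisers and their receptors ran from 0.37 ± 0.05 for Madcam1 over 0.50 ± 0.05 for Ltb, 0.58 ± 0.07 for Cxcl13 and 0.74 ± 0.07 for Ccr6, the receptor of Ccl20, to Cxcr5. The slope of Gp2 was 0.66 ± 0.09 (adjusted p = 0.00195). Blnk had the smallest called slope, 0.13 ± 0.03 (adjusted p = 0.0205), and its call was lost without water + PBS replicate 1 or 2 or without ZnSO4 + PBS replicate 2 or 3. S1pr2, a receptor that holds germinal centre B cells in place, had a slope of 0.24 ± 0.04 (adjusted p = 0.00871) that was not called without water + PBS replicate 1 or ZnSO4 + PBS replicate 2, and that of Ebf1, 0.36 ± 0.06 (adjusted p = 0.00725), not without ZnSO4 + PBS replicate 2.

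**Figure D3:**
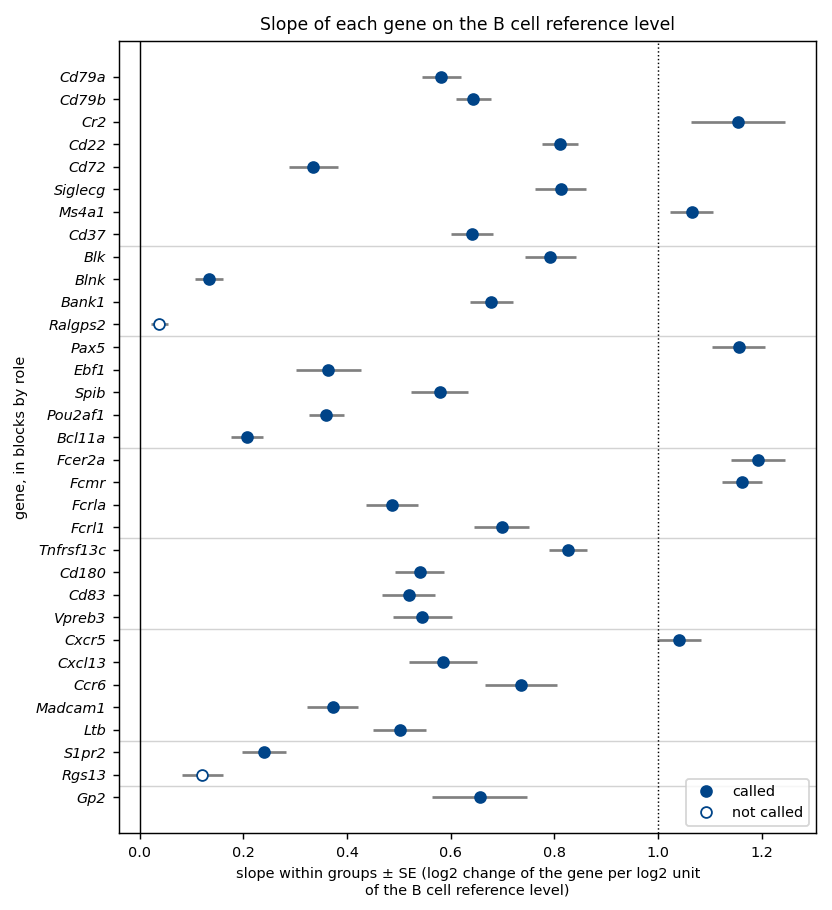
Slope ± SE of each of the 33 genes on the B cell reference level within groups (x axis, log2 change per log2 unit), in blocks by role; filled points were called and the dotted line marks a slope of 1. Fcer2a, Fcmr, Pax5, Cr2, Ms4a1 and Cxcr5 lie above 1, and Ralgps2 and Rgs13, with open points, lie at 0.04 and 0.12.

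Genes outside the list with the strongest positive slopes, by F value and with a mean of at least 1 CPM, were led by Chst3, a sulfotransferase (0.93 ± 0.03), Btla, an inhibitory receptor of lymphocytes (0.68 ± 0.03), and Ighm, the constant region of IgM (0.74 ± 0.04). Among the next were Ighg3, Treml2, H2-DMb2, Ccr7, Glycam1 and Fcrl5, with slopes between 0.64 and 1.57. Glycam1, a mucin of high endothelial venules, had the steepest of them, 1.57 ± 0.11. It was at 0 in water + PBS replicate 1, water + Dex replicates 2 and 3 and ZnSO4 + PBS replicate 3. In ZnSO4 + Dex, replicates 1 and 2 were at 0 as well. Called negative slopes were fewer than called positive ones. They were led by Chrd (-0.19 ± 0.04), Fn1 (-0.08 ± 0.02) and Timm22 (-0.08 ± 0.02). The 2 immunoglobulin variable genes Igkv3-7 and Ighv1-42 followed, at -0.996 ± 0.20 and -0.70 ± 0.14. Variable genes are used by single clones and differ between mice.

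Of a wider list of 69 genes of B cell receptor signalling, B cell identity and antigen presentation, and follicle organisation, none of them a member, 67 were tested. Leaving out the 3 reference genes, which are part of that list, 31 of 64 had a called slope, all positive. They were 12 of 16 genes of receptor signalling, 14 of 29 of identity and antigen presentation and 5 of 19 of follicle organisation. The steepest were Btk, the kinase mutated in agammaglobulinaemia (0.40 ± 0.03), in receptor signalling and Ccr7, the chemokine receptor that guides cells into lymphoid tissue (0.79 ± 0.05), in follicle organisation.

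Markers of other cells in these pieces moved with the reference level to different degrees. All 6 markers of follicular helper and naive T cells had a called slope (0.28 to 0.79), as did 5 of 6 germinal centre B cell markers, among them Mef2b, a cofactor of the germinal centre programme, with 0.93 ± 0.10. In contrast, 2 of 10 general T cell markers were called, Cd2 (0.48 ± 0.06) and Lck (0.22 ± 0.04), while Cd3e (0.08 ± 0.03, adjusted p = 0.268) and Cd8a (0.02 ± 0.04, adjusted p = 0.875) were not. None of 6 plasma cell markers was called, and Jchain, the joining chain of secreted IgA, had a slope of 0.005 ± 0.04. The summed level of the plasma cell markers lay between 1374 and 2502 CPM in the 12 libraries. None of 7 markers of M cells and follicle-associated epithelium was called, unlike Gp2, and of that list Sox8 (0.39 ± 0.11, adjusted p = 0.124) and Marcksl1 (0.16 ± 0.04, adjusted p = 0.05003) had the largest values. In high endothelial venules Glycam1 was called and Chst4 and Cd34 were not, and of 4 tested stromal genes Clu was called. Lyz2 of 6 macrophage and dendritic cell markers and Hba-a1 of 3 erythrocyte markers were called. No gene was called among 6 of enterocytes, 3 of goblet cells, 3 of Paneth cells, 5 of smooth muscle and 4 of mesenteric fat. The part of any of these cells in the values of the members was not tested.

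Between groups, without the reference level, little passed the test. ZnSO4 against water in PBS mice called 0 of 33 members, against 1.70% of all genes, with no member at an unadjusted p under 0.05 and 0 calls with DESeq2. The median log2 fold change (LFC) of the members was -0.52, with 31 of 33 below 0. In Dex mice ZnSO4 against water called 0 of 33 as well, against 1.90% of all genes, at a median LFC of -1.17, with 0 members at an unadjusted p under 0.05 and 0 calls with DESeq2. The mean effect of ZnSO4 over PBS and Dex mice called 0 of 33, against 2.71% of all genes, with 1 member at an unadjusted p under 0.05, 0 calls with DESeq2 and a median LFC of -0.82. Over all 15938 genes tested, 3161, 3048 and 4537 had an unadjusted p under 0.05 in these comparisons, in that order.

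For Dex the LFC was below 0 in 32 of 33 members on either water, and none was called. Dex against PBS on water called 0 of 33 members, against 4.42% of all genes, with 2 at an unadjusted p under 0.05, 0 calls with DESeq2 and a median LFC of -1.19. On ZnSO4 it called 0 of 33, against 5.81% of all genes, with 5 at an unadjusted p under 0.05, 1 call with DESeq2 (S1pr2) and a median LFC of -1.72. Ralgps2 had an adjusted p of 0.0386 there, with an LFC of -0.41, under the cut-off of 0.8. Over all 15938 genes tested, 3623 on water and 4196 on ZnSO4 had an unadjusted p under 0.05 with Dex. The interaction of ZnSO4 and Dex called 0 of 33 members and 0% of all genes, with 0 members and 794 of all genes at an unadjusted p under 0.05, and 0 members and 6 genes called with DESeq2. The comparisons share groups, so their values are not independent. The mean Dex effect over both waters called 2 of 33 members, both lower, against 6.31% of all genes and 2.64% called lower. Its median LFC was -1.55, with 32 of 33 members below 0, while that of all genes was -0.001. The median SE of a member was 0.723, so that an LFC of the size of the median was near 2 SE.

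The 2 members called in the mean Dex effect were Ltb and S1pr2. Ltb, lymphotoxin beta, the membrane-bound ligand that starts the follicle loop (ENSMUSG00000024399, chr17:35194439-35196320), had 47.7, 354 and 105 normalised counts in water + PBS and 73.6, 23.8 and 15.1 in water + Dex. It had 60.3, 286 and 39.8 in ZnSO4 + PBS and 12.4, 10.6 and 39.5 in ZnSO4 + Dex. Its LFC was -2.40 ± 0.67 (adjusted p = 0.0247). S1pr2 (ENSMUSG00000043895, chr9:20962361-20976781) had 44.7, 159.5 and 77.0 in water + PBS, 82.5, 30.2 and 47.5 in water + Dex, 84.9, 158 and 61.1 in ZnSO4 + PBS and 30.1, 35.5 and 38.4 in ZnSO4 + Dex, with an LFC of -1.18 ± 0.35 (adjusted p = 0.0323). On ZnSO4 the 3 Dex mice lay below the 3 PBS mice for both genes, and on water the groups overlapped. Ltb and S1pr2 were both lost as calls without water + PBS replicate 2, without water + Dex replicate 2 or 3, without ZnSO4 + PBS replicate 2 or without ZnSO4 + Dex replicate 1 or 2, and S1pr2 also without ZnSO4 + Dex replicate 3. Without 1 library, the adjusted p of Ltb ran from 0.0159 to 0.0705 and that of S1pr2 from 0.0130 to 0.0796. Ralgps2 had an adjusted p of 0.0115 with an LFC of -0.34 ± 0.08, under the cut-off of 0.8.

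At equal reference level the Dex difference of most members became small. The median LFC of the mean Dex effect moved from -1.55 to -0.07, with 19 of 33 members below 0, and the LFC was smaller in size in 31 of 33 members. The median SE went from 0.723 to 0.225 and was smaller in all 33. Cd79a moved from -1.43 ± 0.71 to -0.07 ± 0.18, Cd22, an inhibitory co-receptor, from -1.77 ± 0.92 to 0.03 ± 0.16 and Madcam1 from -0.77 ± 0.50 to 0.00 ± 0.19. For the mean ZnSO4 effect at equal reference level, 0 of 33 members were called, against 2.72% of all genes, with 6 at an unadjusted p under 0.05 and 0 calls with DESeq2. Of all 15938 genes tested, 4540 had an unadjusted p under 0.05 there. The median ZnSO4 LFC moved from -0.82 to -0.11.

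**Figure D4:**
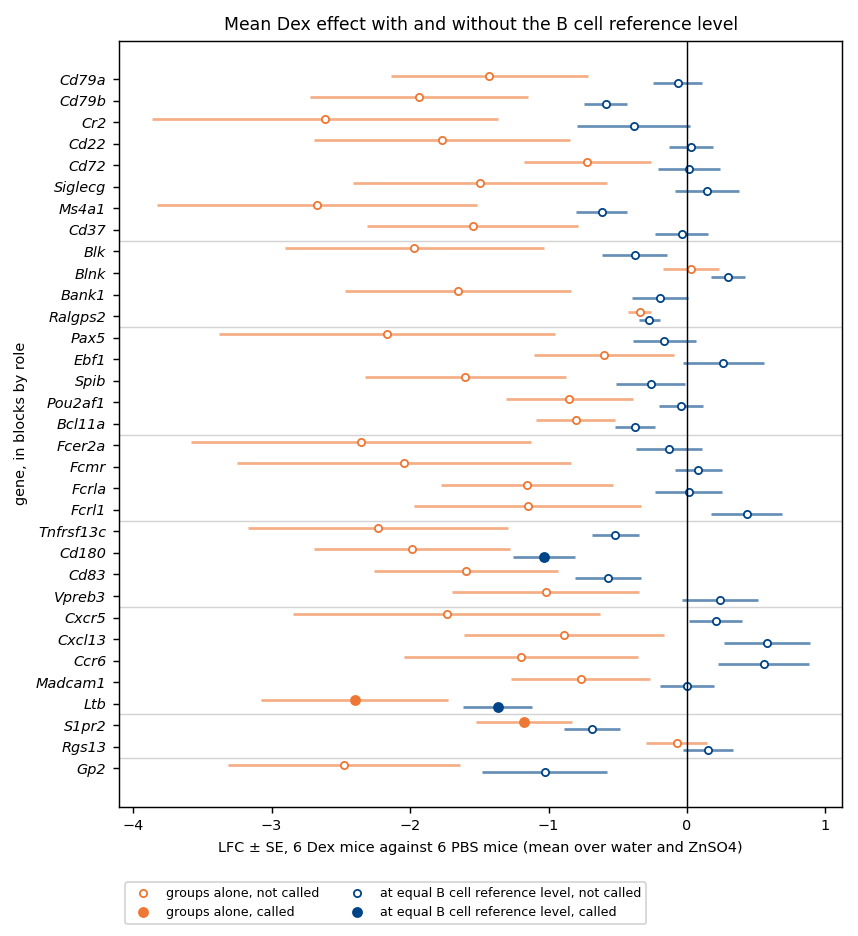
LFC ± SE of the mean Dex effect for each of the 33 genes, 6 Dex mice against 6 PBS mice, from the groups alone (orange) and at equal B cell reference level (blue); filled points were called. Orange points have a median of -1.55 and blue points of -0.07, and the filled blue points are Ltb at -1.37 and Cd180 at -1.03.

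Against the mean of the 3 reference genes, Ighd had an LFC of 0.21 ± 0.10 (adjusted p = 0.195) and H2-Ob of 0.23 ± 0.13 (adjusted p = 0.249). Whether Dex moved that mean apart from the amount of B cell RNA was not tested.

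At equal reference level 2 of 33 members were called, both lower with Dex, against 5.89% of all genes and 2.35% called lower. Ltb had an LFC of -1.37 ± 0.25 (adjusted p = 0.00239) and was called in 22 of 22 settings, with an LFC between -1.52 and -1.13. Cd180, a Toll-like receptor homologue that drives B cell activation (ENSMUSG00000021624, chr13:102693558-102739629), had an LFC of -1.03 ± 0.23 (adjusted p = 0.0072). Without ZnSO4 + PBS replicate 3 its LFC was -0.78 (adjusted p = 0.0285), under the cut-off of 0.8. With Ms4a1 as the reference it was -0.76 with an adjusted p of 0.0977, and Cd180 was called in 19 of 22 settings in all. With Ighd and H2-Ob alone as the reference, an alternative chosen after seeing the data, the LFC was -1.47 for Ltb and -1.14 for Cd180 (adjusted p = 0.00107 and 0.00226), and Ms4a1 was called too (-0.86, adjusted p = 0.0139). By library, Cd180 was at 31.1, 244 and 87.4 normalised counts in water + PBS, 103, 18.4 and 10.81 in water + Dex, 65.999, 210.5 and 34.3 in ZnSO4 + PBS and 4.15, 16.3 and 34.2 in ZnSO4 + Dex.

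Libraries of like reference level can be set side by side. ZnSO4 + PBS replicate 1 and ZnSO4 + Dex replicate 3, at 3.69 and 3.496, had 60.3 and 39.5 normalised counts of Ltb and 65.999 and 34.2 of Cd180. ZnSO4 + PBS replicate 3 and ZnSO4 + Dex replicate 1, at 0.18 and 0.14, had 39.8 and 12.4 of Ltb and 34.3 and 4.15 of Cd180. Fcer2a in the latter pair had 2.78 and 2.07, counted from 3 and 2 reads. Cxcl13 went the other way without passing the test, with an LFC of 0.58 ± 0.31 (adjusted p = 0.237). Without water + Dex replicate 1 it was called higher with Dex, in 1 of 22 settings. It was at 117 and 193 in the first pair and at 50.02 and 51.8 in the second.

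**Figure D5:**
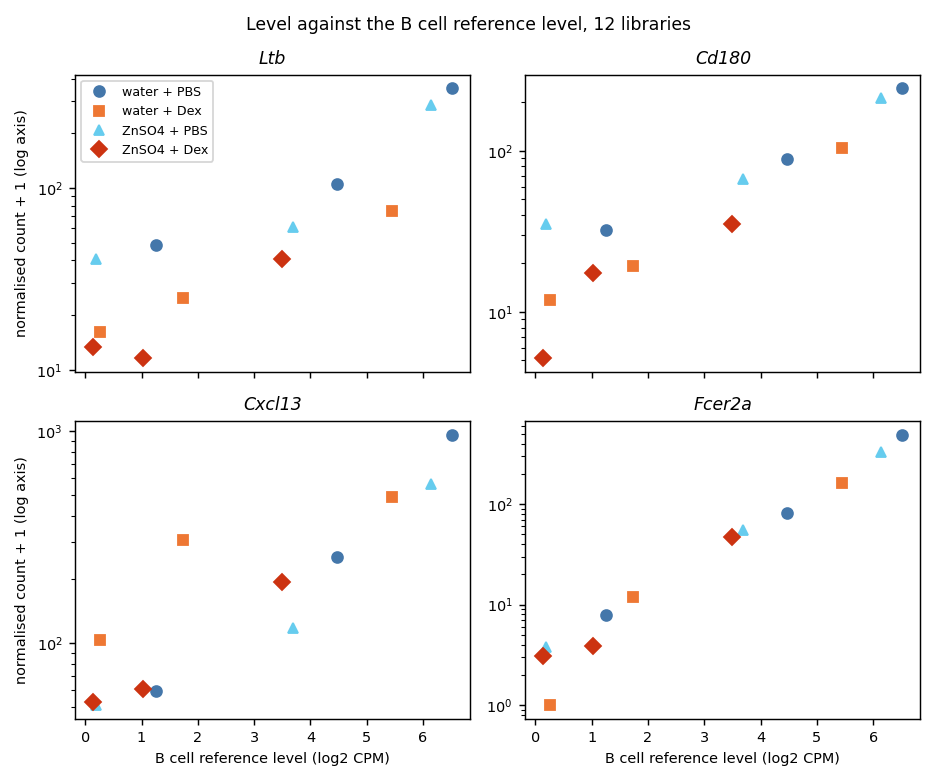
Normalised count + 1 (log axis) of Ltb, Cd180, Cxcl13 and Fcer2a against the B cell reference level (mean log2 CPM of 3 B cell genes outside the list) in the 12 libraries, by group. In the pairs of libraries at 3.69 and 3.496 and at 0.18 and 0.14 the Dex library is lower for Ltb and Cd180, whereas the Fcer2a values follow 1 line.

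A further 4 members had an adjusted p under 0.05 at equal reference level with an LFC under the cut-off of 0.8. They were S1pr2 (-0.68 ± 0.20, adjusted p = 0.0327), Ms4a1 (-0.62 ± 0.19, adjusted p = 0.0382), Cd79b, the partner of Cd79a in the receptor (-0.59 ± 0.16, adjusted p = 0.0212), and Ralgps2 (-0.27 ± 0.08, adjusted p = 0.0280). All 4 were lower with Dex. With Ltb and Cd180, 6 of 33 members had an adjusted p under 0.05, against 3081 of all 15938 genes tested. The shares were alike, so by this count the members did not stand out from all genes. Gp2 had as large an LFC as Cd180, -1.03 ± 0.45, with an adjusted p of 0.148.

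In the wider list of 67 tested genes at equal reference level, Dex went with 2 calls upwards and 8 downwards. The largest falls were Tnf, a cytokine that follicles need to form (-1.89, adjusted p = 0.0194), Icam1, an adhesion molecule (-1.63, adjusted p = 3.58e-04), Ciita, the master regulator of MHC class II (-1.18, adjusted p = 6.35e-05), and Irf8, a factor of B cells and myeloid cells (-1.13, adjusted p = 2.48e-06). The 2 rises were Btla (1.02, adjusted p = 3.51e-04) and Foxo1, a factor needed for homing and for receptor editing (1.02, adjusted p = 0.00214). Without the reference level the same list had 1 rise and 11 falls with Dex. Bcl6, the master factor of germinal centres, was the single marker called with Dex at equal reference level among the 6 of germinal centre B cells, and it was higher (1.17, adjusted p = 5.62e-05). For ZnSO4 at equal reference level 5 of the 67 genes were called, all lower, led by Iglc1, a lambda light chain constant region (-1.83), Cd38 (-1.21), Cd74, the invariant chain (-1.07), and Ciita (-0.999). Among the marker lists, 7 of 10 general T cell markers and 3 of 6 plasma cell markers were called lower with ZnSO4 at equal reference level.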

How the data were processed

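Whole pieces of ileum from 12 mice were sequenced single-end from stranded TruSeq libraries. The deposited values are raw counts per gene, made by the authors from reads trimmed with Trimmomatic, aligned to mm10 with HISAT2 2.0.4 and counted with featureCounts. The annotation release and strand setting are not given in the sources used here. Counts were tested with edgeR 4.0.16 (R 4.3.3; TMM factors 0.9223 to 1.092, filterByExpr with a minimum count of 10, 15938 genes, quasi-likelihood F test, Benjamini-Hochberg adjustment), fitting all 12 libraries together. A gene was called at an adjusted p under 0.05 and an absolute LFC over 0.8, or by adjusted p alone for slopes and the interaction. A mean effect is the average over both levels of the other treatment. All 33 members passed the filter. Genes outside the list were named by a fixed rule (the largest called values of at least 1 CPM, by F value for slopes). Btk and the uncalled markers were named after their values were seen. The members, the 3 reference genes and the other lists were chosen with earlier results of these data known. Some genes of these lists are not reported here. The scripts were tested on simulated data. Alternatives were DESeq2 1.42.0, RLE factors, other filters and cut-offs, other references, a replicate block and leaving out each library. Nothing in the labels tells of litters or cages, so p-values measure the spread between these mice only. Promoter windows came from RefSeq (GRCm38.p6). Permutation tests used numpy 2.4.6, with ranks from scipy 1.17.1. Exact p-values were counted over all arrangements in Python 3.11.15.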

Additional observations from a re-analysis of the deposited data

How the results depend on the processing

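With 3 mice per group, the mean Dex effect of a member, 6 Dex against 6 PBS mice, had a median SE of 0.723. In addition, 13 members had a library with under 10 counts. Both limit what could be called for the members that varied most. The members called in the mean Dex effect changed most with the processing, from 2 to 5 with DESeq2, 6 with no filter on low counts, 0 with a replicate block and 0 to 5 without 1 library. For Dex on ZnSO4 the count went from 0 to 1 with DESeq2, 1 with no cut-off on the LFC, 2 with no filter on low counts, 1 with only the 2 groups compared and 0 to 1 without 1 library (1, S1pr2, without ZnSO4 + PBS replicate 3 or water + PBS replicate 1 or 2). At equal reference level the 2 calls with Dex became 1 when 1 of the 3 reference genes was used alone. They became 3 with Ms4a1 and 3 with Ighd and H2-Ob as the reference (the latter chosen after seeing the data). With no cut-off they were 6, and without 1 library 1 to 3 (1 without ZnSO4 + PBS replicate 3). Some of these calls were higher with Dex, namely Fcmr and Cxcr5 with Ms4a1 as the reference. So were Cxcl13 without water + Dex replicate 1 and Ccr6 without ZnSO4 + Dex replicate 3. The 0 calls with ZnSO4 at equal reference level became 0 to 1 (1 without ZnSO4 + PBS replicate 2 or water + Dex replicate 1). The 31 called slopes ranged from 28 to 31 without 1 library and were 29 with the replicate block. With a mean of at least 50 counts, 29 of the 31 members tested were called. With Ms4a1 as the reference, 30 of the 32 members tested were called, and with Ighd and H2-Ob the count was 31. Of the 31 called slopes, 28 were called in every setting in which they were fitted. Counts for the other comparisons were 0 in all settings. The median r with Ms4a1 ran from 0.914 to 0.948 and the median spread from 1.38 to 1.62 without 1 library. Over single members, 6215 values kept their side of the threshold, 27 lost a call and 35 gained one. Among values called in the main fit or in the alternative, 0 reversed direction. Values called in neither were not checked for direction, and some changed it. The LFC of Fcmr with Dex at equal reference level was 0.08 and ran from -0.18 to 0.84. The cause of these changes was not tested.

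Same-numbered mice did not deviate together (median correlation of deviations -0.056 over 18 pairs, against 0.023 over 36 other pairs), so the numbers were not taken as pairs, and with the replicate block the slope was called in 265 genes in place of 423. Over all genes, dropping the LFC cut-off gave 3432 in place of 1005 calls for the mean Dex effect, 3081 in place of 939 at equal reference level, 2034 in place of 432 for the mean ZnSO4 effect, 2016 in place of 434 at equal reference level, 742 in place of 271 for ZnSO4 in PBS mice, 1582 in place of 705 and 2189 in place of 926 for Dex on water and on ZnSO4 and 696 in place of 303 for ZnSO4 in Dex mice. A mean of at least 50 counts gave 627, 593, 272, 271 and 280 for the mean Dex effect, the same at equal reference level, both mean ZnSO4 effects in that order and the slope, and DESeq2 called 6 genes for the interaction in place of 0. Without 1 library the slope fell to as few as 221 genes (without ZnSO4 + PBS replicate 2) and ZnSO4 in PBS mice to 174 (without water + PBS replicate 1).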
